A study of Mus musculus with 4 samples.

Results

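The genes described here build and control motile cilia, the beating cell projections of ciliated airway cells that move mucus out of the lung. The set holds 47 genes listed for their part in the cilium or their use as ciliated cell markers, of the 30702 genes measured in whole lung. Each gene was read from the probe set annotated to it alone, taking the brightest where there were several. This left 46 genes, since the probe set of Foxj1 was also annotated to Rnf157. The genes listed as Dnai1 and Dnai2 are named Dnaic1 and Dnaic2 in the RefSeq table. The probe set listed as Spag6 carries the gene identifier of Spag6l.

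Whole lung RNA of adult, age-matched mice was measured on 4 Affymetrix arrays. Wild-type (WT) mice, 2 arrays, carried the strain label C57/BL6, and sickle cell disease (SCD) mice, also 2 arrays, the label SCD Tg. The sources used here do not give the transgenic line, the sex, the exact age, a treatment or a batch. The strain label goes with the group, so that the disease genotype and other strain differences cannot be told apart. The labels number the lungs 1 and 2 in each group without saying more of their source, and p-values then measure the spread between these samples, which may be technical.

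A motile cilium is built on a ring of microtubule doublets around a central pair. Dynein arms on the doublets make the force for bending, radial spokes and the central pair time it, and a regulatory complex ties neighbouring doublets together. In airway cells, Mcidas and Ccno drive the making of many basal bodies, while the transcription factors Foxj1, Rfx2 and Rfx3 switch on the genes of the axoneme. RFX factors bind the X-box, a pair of half-sites of which GTTGCC is a common form.

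Values below are log2 expression values, on which a step of 1 is a doubling, and differences are SCD minus WT ± the standard error (SE) of limma, a linear model fitted over all genes. A gene passed at an adjusted p under 0.05 (Benjamini-Hochberg over all 30702 genes). Array medians lay between 5.67 and 5.73, and the arrays of a group correlated across genes at 0.992 (WT) and 0.995 (SCD, Pearson). Lung epithelial markers were bright on every array: Sftpb, a surfactant protein gene, read from 16.71 to 16.85 and Ager, an alveolar type 1 marker, from 12.81 to 13.17. Exon control probes were 0.16 higher in SCD than in WT arrays (median shift), while the medians of the intron control probes were lower, at 6.48 and 6.47 in WT and 6.31 and 6.27 in SCD. The part of these shifts in the gene results was not tested beyond taking off the exon control shift. With the exon control shift taken off, the median difference of all genes moved from 0.0020 to -0.16, and the calls over all genes from 79.5% to 55.8% higher.

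Sequence before the start sites was read from the RefSeq promoter table (GRCm38.p6), which held 41 of the 47 genes. The motifs searched, on both strands of the 250 bases before each start, were the RFX half-site GTTGCC, the X-box, made of inverted half-sites and able to contain GTTGCC, and the forkhead core TGTTTAC. The half-site was present in 21 of 41 genes (51.2%), against 3195 of 27025 genes in the table (11.8%). It was found in 13 of 24 genes that rose in SCD lung and in 8 of 17 that did not pass. The X-box in the searched form was found in 1 gene, Pifo (2.44%, against 0.444% of all genes). The forkhead core was found in 4 genes (9.76%, against 3.54%). A match is a run of letters and does not show that a factor binds there.

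**Figure D1:**
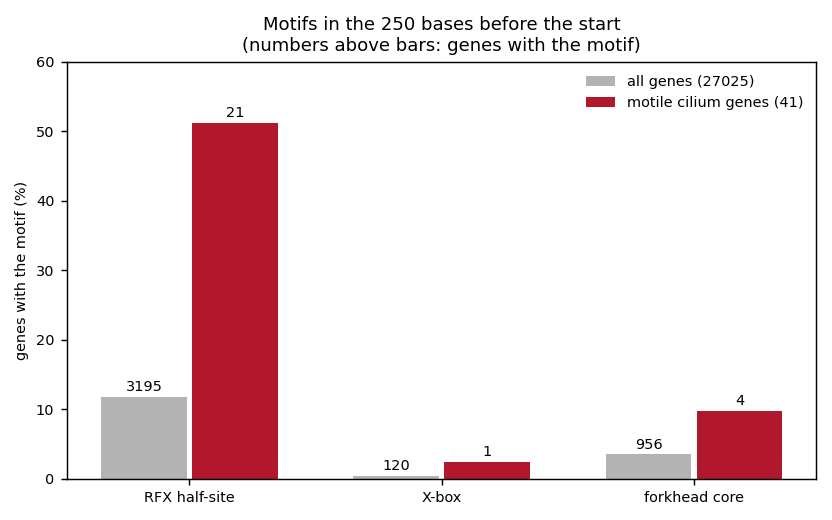
Share of genes (vertical axis, percent) with each motif in the 250 bases before a RefSeq start, for all 27025 genes of the table (grey) and 41 motile cilium genes (red). The RFX half-site was found in 51.2% of the motile cilium genes and 11.8% of all genes.

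The promoters of Dynlrb2, Sntn and Ccdc153 are shown because these genes were among those that rose, each held 1 half-site, and the windows overlapped no annotated gene. The 250 bases run 5′ to 3′ along the gene, all on the + strand, with the half-site in capitals.
Dynlrb2, chr8:116504765-116505014: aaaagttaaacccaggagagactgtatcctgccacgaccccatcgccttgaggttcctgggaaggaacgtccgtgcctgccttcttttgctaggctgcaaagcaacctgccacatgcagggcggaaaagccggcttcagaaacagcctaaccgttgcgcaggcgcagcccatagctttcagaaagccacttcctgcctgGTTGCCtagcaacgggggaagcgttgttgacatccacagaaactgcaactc
Sntn, chr14:13670626-13670875: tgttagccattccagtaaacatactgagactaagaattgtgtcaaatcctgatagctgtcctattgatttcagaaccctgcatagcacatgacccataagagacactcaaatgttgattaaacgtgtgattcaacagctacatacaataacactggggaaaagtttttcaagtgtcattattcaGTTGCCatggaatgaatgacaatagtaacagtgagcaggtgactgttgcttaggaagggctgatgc
Ccdc153, chr9:44240427-44240676: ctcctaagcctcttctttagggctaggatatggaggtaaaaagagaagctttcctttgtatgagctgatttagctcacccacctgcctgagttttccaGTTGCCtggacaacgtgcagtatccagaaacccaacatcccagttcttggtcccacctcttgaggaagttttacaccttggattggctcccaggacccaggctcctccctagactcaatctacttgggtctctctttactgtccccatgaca

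Shorter stretches around each half-site, turned so that it reads GTTGCC, are given for Hydin, Lrrc23, Lrriq1, Fam183b and Dnah7a, which rose, and for the regulators Ccno, Mcidas and Rfx2, which did not pass. Hydin, Ccno and Mcidas lie on the + strand and the other genes on the - strand. Lrrc23 and Fam183b hold 2 half-sites each, and the one nearer the start comes first. In the Pifo stretch, which follows its gene on the - strand, the X-box is in capitals.
Hydin, chr8:110266956-110266976: accatctGTTGCCacagcaac
Lrrc23, chr6:124779753-124779774: ccgcccctGTTGCCataacaac
Lrrc23, chr6:124779871-124779892: gctcagtaGTTGCCaggttacg
Lrriq1, chr10:103236328-103236349: gattggctGTTGCCatggctac
Fam183b, chr11:58801963-58801984: gaacatccGTTGCCtggaaact
Fam183b, chr11:58802014-58802035: tgggcgctGTTGCCtagagaca
Dnah7a, chr1:53706971-53706992: tcctcacaGTTGCCtgccaccc
Ccno, chr13:112987575-112987596: gggctgcgGTTGCCacggtgac
Mcidas, chr13:112993665-112993686: gaagccagGTTGCCaggttggt
Rfx2, chr17:56831111-56831132: tggtaaccGTTGCCgggcgcaa
Pifo, chr3:106001498-106001525: gcggttccGTTCCCTTGGCAACgtagta

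Most of the motile cilium genes measured were higher in SCD lung. Of the 46 genes, 27 rose (58.7%, against 2.47% of all genes), 0 fell (against 0.635%) and 19 did not pass; by unadjusted p under 0.05, limma gave 40 of the 46 genes, against 16.7% of all genes. Increases of the 27 ran from 0.78 (Ccdc39) to 1.91 (Fam183b), or 1.72-fold to 3.76-fold. In 43 of 46 genes both SCD arrays lay above both WT arrays (25.3% of all genes did), and 21 of 46 did so with a difference of at least 1 (1.73% of all genes). The median difference was 0.97, beside 0.0020 over all genes. In RNA of whole lung, a change in the number of ciliated cells and a change in RNA per ciliated cell cannot be told apart.

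These calls rest on having both SCD arrays. Without SCD replicate 1 and without SCD replicate 2, 0 of the 46 genes passed in limma (37 and 35 at an unadjusted p under 0.05, against 10.8% and 10.7% of all genes), while the median difference was 1.02 and 0.96; over all genes 0 passed too. Without WT replicate 1, 18 genes rose (against 1.36% of all genes), and without WT replicate 2, 26 (against 2.09%). The WT arrays differed from each other more than the SCD arrays in these genes, with median gaps of 0.16 and 0.08. WT replicate 2 was the higher WT array in 32 of 46 genes, with a median step of 0.10 that was -0.0044 over all genes.

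**Figure D2:**
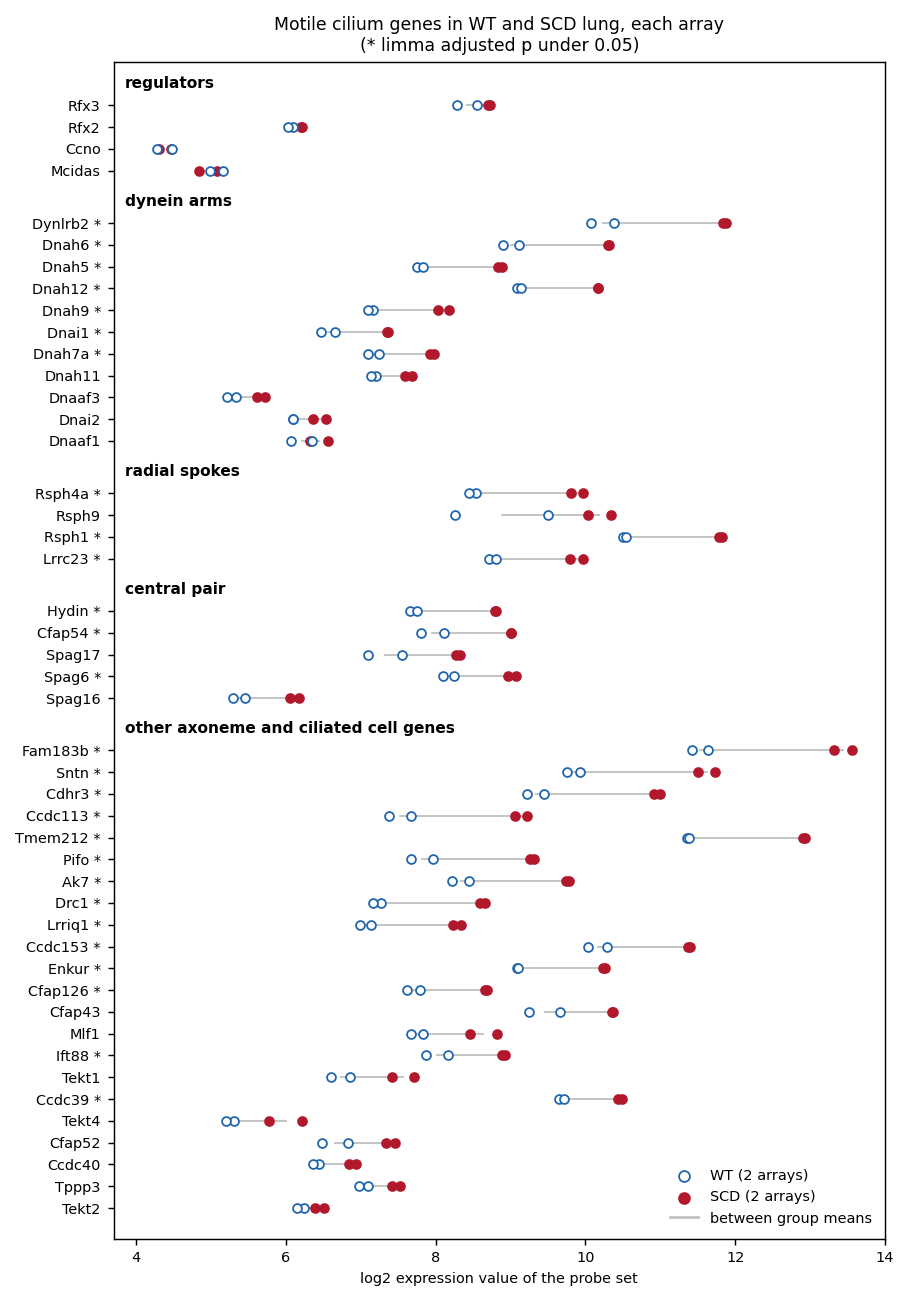
The log2 expression value (horizontal axis) of each of the 46 genes on every array, by role, with WT arrays as open circles, SCD arrays as filled circles and a line between the group means; a star marks an adjusted p under 0.05. Both SCD arrays lie above both WT arrays in 43 genes, while the regulators at the top lie close together.

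None of the 4 regulators measured alone passed in limma (0 of 4, and 0 at an unadjusted p under 0.05; median difference 0.08). Mcidas, which encodes multicilin and starts the multiciliated program, read 4.98 and 5.16 in WT and 4.84 and 5.08 in SCD (-0.11 ± 0.14, adjusted p = 0.782). Ccno, needed to amplify centrioles, read 4.48 and 4.28 in WT and 4.47 and 4.31 in SCD (0.01 ± 0.14); its sign turned with the exon control shift removed (-0.15). The groups overlapped in both genes, and all 8 values lay below the median of the intron control probes on the WT arrays (6.48). Rfx2 read 6.10 and 6.02 in WT and 6.21 and 6.21 in SCD (0.15 ± 0.11), and turned to -0.01 with that shift removed. Rfx3 read 8.28 and 8.55 in WT and 8.72 and 8.70 in SCD (0.30 ± 0.13, adjusted p = 0.338). For Rfx2 and Rfx3 the SCD arrays lay just above the WT arrays (25.3% of all genes did), by less than the test could call.

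Dynein arm genes rose in 7 of 11 cases (against 2.47% of all genes), with a median difference of 0.80. Among outer arm heavy chains, the motors of the beat, Dnah5 read 7.75 and 7.84 in WT and 8.88 and 8.83 in SCD, an increase of 1.06 ± 0.10 (adjusted p = 0.011). Dnah9 read 7.16 and 7.09 in WT and 8.03 and 8.18 in SCD (0.97 ± 0.11). Dnah11, the third outer arm heavy chain, read 7.20 and 7.13 in WT and 7.59 and 7.69 in SCD and did not pass (0.47 ± 0.10, adjusted p = 0.102). In all 3 genes both SCD arrays lay above both WT arrays (25.3% of all genes did), with the smallest step in Dnah11.

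Inner arm heavy chains shape the waveform of the beat, and the 3 in the set all rose. Dnah6 read 8.90 and 9.11 in WT and 10.31 and 10.30 in SCD, an increase of 1.30 ± 0.11 (2.46-fold, adjusted p = 0.0084). Dnah12 read 9.09 and 9.13 in WT and 10.16 and 10.17 in SCD (1.05 ± 0.09). Dnah7a read 7.10 and 7.24 in WT and 7.93 and 7.98 in SCD (0.79 ± 0.11). In each the SCD arrays lay closer together than the WT arrays. Once the exon control shift was taken off, Dnah7a missed the threshold (0.63, adjusted p = 0.0571; 0.0192 to 0.0571 over the alternatives that kept all arrays), and it has near-identical neighbours, Dnah7b and Dnah7c, whose RNA its probes may also bind.

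Of the smaller dynein parts, Dynlrb2, a light chain of the roadblock type, rose most: it read 10.08 and 10.38 in WT and 11.88 and 11.84 in SCD, an increase of 1.63 ± 0.12 (3.10-fold, adjusted p = 0.0078). Dnai1, an outer arm intermediate chain, read 6.66 and 6.46 in WT and 7.37 and 7.35 in SCD (0.80 ± 0.12, adjusted p = 0.0396). Its call was the weakest of the set. It missed the threshold with the replicate block (adjusted p = 0.054), with no intensity trend (0.0538) and once the exon control shift was removed (0.0666; 0.0237 to 0.0666 over the alternatives that kept all arrays). The partner chain Dnai2 (0.36 ± 0.12) and the arm assembly factors Dnaaf1 (0.23 ± 0.15) and Dnaaf3 (0.39 ± 0.12) did not pass. These 3 had WT means below the intron control median, and in Dnaaf1 the groups overlapped. Without WT replicate 1 and without WT replicate 2, 4 of the 11 dynein arm genes rose.

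Radial spoke genes rose in 3 of 4 cases (against 2.47% of all genes), with a median difference of 1.30. Rsph1, a spoke head subunit, read 10.50 and 10.54 in WT and 11.78 and 11.82 in SCD. Rsph4a, also of the spoke head, read 8.53 and 8.44 in WT and 9.81 and 9.96 in SCD, an increase of 1.40 ± 0.10 (2.64-fold, adjusted p = 0.0078). Lrrc23, a spoke component, read 8.72 and 8.80 in WT and 9.96 and 9.80 in SCD (1.12 ± 0.11). The step between groups was many times the gap within a group in these 3 genes. Rsph9, the other head subunit, was at 1.31 ± 0.41 and did not pass (adjusted p = 0.212). Its WT arrays stood apart at 8.25 and 9.50, beside 10.34 and 10.03 in SCD, and its difference depended on which of them was kept. Without WT replicate 1 it was 0.68 and did not pass (adjusted p = 0.187), and without WT replicate 2 it was 1.93 and passed (adjusted p = 0.0317; 0.146 to 0.244 over the alternatives that kept all arrays).

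Central pair genes rose in 3 of 5 cases (against 2.47% of all genes), with a median difference of 0.98. Hydin, which encodes a very large protein of the central pair, read 7.66 and 7.75 in WT and 8.80 and 8.79 in SCD, an increase of 1.09 ± 0.10 (adjusted p = 0.0101). Cfap54 read 7.81 and 8.10 in WT and 9.00 and 9.01 in SCD (1.05 ± 0.13). Spag6 read 8.09 and 8.25 in WT and 9.07 and 8.96 in SCD (0.84 ± 0.11). The other two central pair genes had differences of a like size and did not pass. Spag17 read 7.10 and 7.55 in WT and 8.27 and 8.33 in SCD (0.98 ± 0.17, adjusted p = 0.0608), and Spag16 read 5.30 and 5.46 in WT and 6.06 and 6.17 in SCD (0.74 ± 0.12, adjusted p = 0.0525). Both passed with quantile normalization, under which 5 of 5 rose; without WT replicate 1, 1 of 5 did.

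Genes of the doublets, their linkers and the ciliated cell surface rose in 14 of 22 cases (against 2.47% of all genes), with a median difference of 1.06. Drc1, of the nexin-dynein regulatory complex between doublets, read 7.26 and 7.16 in WT and 8.60 and 8.66 in SCD, an increase of 1.42 ± 0.10 (2.67-fold, adjusted p = 0.0078). Ccdc39, one partner of the ruler that spaces dyneins and spokes along the doublet, read 9.65 and 9.71 in WT and 10.43 and 10.49 in SCD (0.78 ± 0.09). Its partner Ccdc40 read 6.45 and 6.36 in WT and 6.84 and 6.94 in SCD and did not pass (0.49 ± 0.11). In both partners the SCD arrays lay above the WT arrays, as in 25.3% of all genes.

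Fam183b, a small axoneme gene, showed the largest difference of the 46: it read 11.42 and 11.63 in WT and 13.32 and 13.55 in SCD, an increase of 1.91 ± 0.12 (3.76-fold, adjusted p = 0.0065). Enkur, which encodes an axoneme protein, read 9.09 and 9.10 in WT and 10.26 and 10.23 in SCD (1.15 ± 0.09). Cfap126, known as flattop and involved in basal body placement, read 7.62 and 7.79 in WT and 8.65 and 8.69 in SCD (0.97 ± 0.11). The within-group gap of Enkur was at most 0.03, among the tightest pairs of arrays in the set. Ccdc113 read 7.38 and 7.68 in WT and 9.22 and 9.06 in SCD (1.62 ± 0.14). Ccdc153 read 10.03 and 10.29 in WT and 11.39 and 11.37 in SCD (1.22 ± 0.12). Pifo, named pitchfork, read 7.96 and 7.67 in WT and 9.31 and 9.26 in SCD (1.47 ± 0.13). Both coiled-coil genes and Pifo at least doubled on every SCD array relative to the WT mean.

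Ak7, an adenylate kinase of the cilium, read 8.21 and 8.45 in WT and 9.78 and 9.75 in SCD (1.43 ± 0.12). Lrriq1 read 7.14 and 6.99 in WT and 8.24 and 8.34 in SCD (1.22 ± 0.11). Ift88, part of the transport train that builds primary as well as motile cilia, read 7.88 and 8.16 in WT and 8.92 and 8.89 in SCD (0.88 ± 0.13, adjusted p = 0.0384). Ift88 missed the threshold with no intensity trend (adjusted p = 0.0581), once the exon control shift was removed (0.0616; 0.0245 to 0.0616 over the alternatives that kept all arrays) and without WT replicate 1 (0.0789). Sntn, a gene of the ciliary tip, read 9.75 and 9.93 in WT and 11.73 and 11.50 in SCD (1.78 ± 0.12, 3.42-fold). Tmem212, a membrane protein gene used as a ciliated cell marker, read 11.36 and 11.39 in WT and 12.93 and 12.90 in SCD (1.54 ± 0.07, adjusted p = 0.0034). Cdhr3, a cadherin gene of ciliated cells and receptor of rhinovirus C, read 9.22 and 9.45 in WT and 10.92 and 10.99 in SCD (1.62 ± 0.11). Tmem212 had the smallest adjusted p of the 46 genes, from array pairs that differed by 0.03 in each group.

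The 8 genes of this class that did not pass all had positive differences, from 0.25 (Tekt2) to 0.90 (Cfap43). In each, both SCD arrays lay above both WT arrays. Over all 30702 genes, 15448 had a positive difference and 25.3% had both SCD arrays above. The tektins, filament proteins inside the doublets, were at 0.83 ± 0.16 for Tekt1, 0.25 ± 0.11 for Tekt2 and 0.75 ± 0.18 for Tekt4. Cfap52 (0.75 ± 0.15), Cfap43 (0.90 ± 0.16, adjusted p = 0.0577) and Mlf1 (0.88 ± 0.16, adjusted p = 0.0612) came closer to the threshold than Ccdc40 or Tppp3, a tubulin-binding protein gene (0.43 ± 0.11). Cfap43 and Mlf1 passed with the replicate block, with quantile normalization and with the dimmer genes left out, and Tekt1 with the dimmer genes left out.

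Of the 46 genes, 10 had a WT mean under 6.48, the WT median of the intron controls, among them Rfx2, Mcidas and Ccno, and 0 of these passed in limma. Among the further motile cilium genes described next, 29 lay below the same median and 6 of them rose, with Morn5 (1.06 ± 0.11) and Ccdc96 (1.09 ± 0.16) named after their values were seen. With the dimmer 50% of all genes left out, 6.76% of the genes tested rose, and 31 of the 41 cilium genes still tested.

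Other genes of the cilium, from lists that do not share a gene with the 47, were measured too. These lists, like the 47, were chosen with earlier results of these data known. Of 78 further motile cilium genes, 35 rose (44.9%, against 2.47% of all genes), 0 fell (against 0.635%) and 43 did not pass (median difference 0.68). Nme5, a spoke-associated gene, rose by 1.71 ± 0.12, Mns1 by 1.33 ± 0.10, Spef2, of the central pair, by 1.29 ± 0.10 and Cfap53 by 1.68 ± 0.13. Without WT replicate 1, 12 of these rose, without WT replicate 2, 19, and 0 without either SCD array. Of 29 genes of multiciliation and basal bodies, 1 rose (3.45%, against 2.47% of all genes) and 28 did not pass (median 0.16). By unadjusted p under 0.05, limma gave 9 of the 29, against 16.7% of all genes. The gene that rose was the centriole appendage gene Cep83 (0.66 ± 0.08). That call was lost with no intensity trend, once the exon control shift was removed, and without WT replicate 1. Cetn4, a centrin gene, was at 0.71 ± 0.13 (adjusted p = 0.0642) and Nek10 at 0.66 ± 0.13 (adjusted p = 0.0851). Gmnc, a geminin relative that acts before Mcidas, was singled out after its values were seen. It was at -0.65 ± 0.18 (limma adjusted p = 0.16), with both SCD arrays below both WT arrays, as in 22.5% of all genes.

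Intraflagellar transport genes serve the primary cilia of many lung cells as well. Of 36, 3 rose (8.33%, against 2.47% of all genes) and 33 did not pass (median difference 0.34). By unadjusted p under 0.05, limma gave 19 of the 36, against 16.7% of all genes. Both SCD arrays lay above both WT arrays in 27 of the 36, as in 25.3% of all genes. Ift74 rose by 0.82 ± 0.12, Ift57 by 0.79 ± 0.12 and Dync2h1, the retrograde motor, by 0.71 ± 0.11. With the replicate block, with no intensity trend, once the exon control shift was removed, and without any one array, 0 of the 36 passed. Whether one role class differed from another was not tested.

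**Figure D3:**
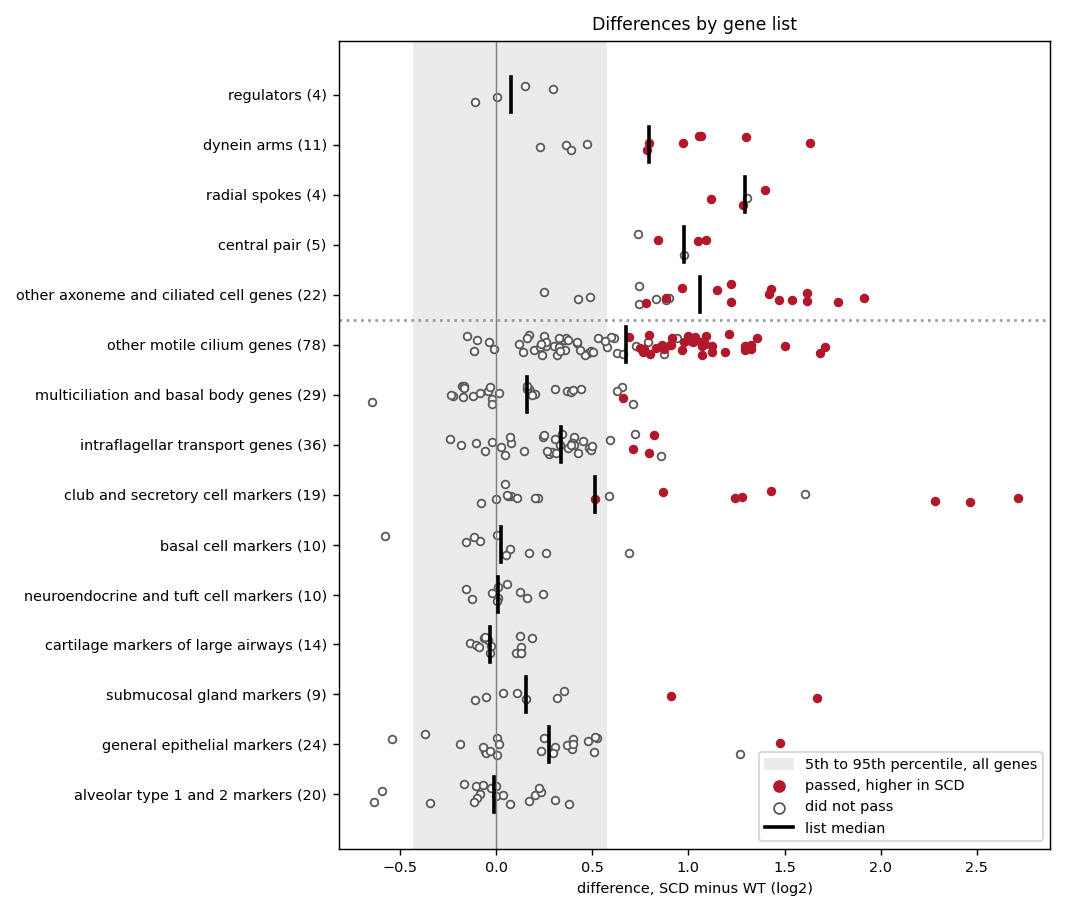
Difference (horizontal axis, SCD minus WT, log2) of each gene in the 5 role classes above the dotted line and in 10 other lists below it, with the number measured in parentheses; filled points passed, black bars are list medians and the grey band holds the 5th to 95th percentile of all genes (-0.43 to 0.57). The dynein, spoke, central pair and axoneme classes lie mostly right of the band, and the 14 cartilage genes lie within it, while the basal cell list reaches from -0.58 to 0.69.

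Markers of other airway cells were read beside the cilium genes. Over all genes, 2.47% rose and 16.7% had an unadjusted p under 0.05 in limma. In the list of 19 club and secretory genes, 8 rose and 11 did not pass (11 of 19 at an unadjusted p under 0.05, median difference 0.51), and the mean level of the list was 11.19 and 11.31 in WT and 12.09 and 12.05 in SCD. Those with the smallest p were the antimicrobial lectin gene Reg3g (2.71 ± 0.11), the mucin gene Muc5b (1.43 ± 0.09), Bpifb1 (2.28 ± 0.14) and Sult1d1 (1.24 ± 0.11). Of the defining club cell genes, Scgb3a2 was at 0.22 ± 0.05 and Cyp2f2 at -0.08 ± 0.05, neither passing. Scgb3a2 read the same value, 16.75, on both SCD arrays, and whether its difference was held down was not tested. Scgb1a1 read 19.93 on every array, as 102 probe sets did, so that no direction can be read from it. The part of secretory cells in the cilium result was not tested.

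Among 24 general epithelial genes (median difference 0.27), 13 had an unadjusted p under 0.05 in limma, against 16.7% of all genes. By the adjusted p 1 rose (4.17%, against 2.47% of all genes), the keratin gene Krt8 (1.48 ± 0.18). Epcam (0.39 ± 0.09) and Cdh1 (0.37 ± 0.07) did not pass. The list's mean level was 7.94 and 8.07 in WT and 8.28 and 8.24 in SCD. Of 20 alveolar type 1 and 2 genes 0 passed in limma (6 at an unadjusted p under 0.05), with mean levels of 13.78 and 13.89 in WT and 13.81 in both SCD arrays; with the dimmer genes left out 2 passed as lower and 1 as higher, with quantile normalization 1 each way, once the exon control shift was removed 2 as lower, and without WT replicate 1, 1 as lower. Among these 20 alveolar genes, Sftpc read 19.93 and Lyz2 19.75 on every array, so that no direction can be read from them. Both also enter the mean levels. Cartilage genes, present around large airways, were 0 of 14 by the adjusted p and 0 by the unadjusted p. Their mean levels were 5.52 and 5.54 in WT and 5.55 in both SCD arrays. For 10 basal cell genes the counts were 0 and 2. With the dimmer genes left out, with quantile normalization and with equal medians, 1 passed as higher. The 2 by unadjusted p were Icam1, higher in SCD (0.69 ± 0.12), and Dapl1, lower (-0.58 ± 0.18). All the basal cell genes but Icam1 had WT means below the intron control median. Among them Krt5, their defining keratin, read from 5.46 to 5.61. Of 10 neuroendocrine and tuft cell genes 0 passed (0 by unadjusted p), and of 9 gland genes Ltf (1.67 ± 0.11) and Pigr (0.91 ± 0.13) rose, Pigr not with the replicate block, with no intensity trend, once the exon control shift was removed or without WT replicate 1. Ltf is also a neutrophil granule gene. The 10 neuroendocrine and tuft cell genes all had WT means below the intron control median. Whether genes this dim could show a difference was not tested.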

How the data were processed

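Total RNA of whole lung was labelled with biotin through a 3' IVT kit, per the labels' protocols. The deposited values, 1 per probe set and array, were read as log2 expression values, since they ran from 1.72 to 19.93; the scale is not written in the table. The submitters' processing notes name RMA (robust multi-array average), Partek and Affymetrix Expression Console, without version, role or order. Of 65956 transcript clusters, the platform annotation, updated through RefSeq (GRCm38.p6), paired 31258 with 1 gene and 1492 with several; the 31258 gave 30702 genes, none filtered. A probe set can hold its values down at high RNA levels, and 192 clusters held 1 value on all arrays.

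SCD was compared with WT in limma 3.58.1 (R 4.3.3) on the group alone, with eBayes's intensity trend, leaving 2 residual degrees of freedom; the number of arrays limits the precision. The tests are two-sided. In 3 simulations of SCD against WT (30702 genes), 17.7% of genes changed by 1 and 83.0% of genes changed by 2 (log2) were recovered. False calls numbered 3.67 on average. Few genes were changed there, and the share recovered depends on that number, so these shares need not hold for the real data. Every member is accounted for, those that passed with all 4 values; of each other list up to 4 genes with the smallest p, and fixed markers, may be named, and Gmnc, Morn5 and Ccdc96 were added after values were seen. The members and lists were chosen with earlier results of these data known. Alternatives were a block on the replicate number, a fit with no intensity trend, the dimmer 50% of genes left out, averaging the probe sets of each gene, quantile normalization, equal array medians, removal of the exon control shift and each array left out. Omission of genes with 1 value on all arrays was added after seeing the data.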

Additional observations from a re-analysis of the deposited data

How the results depend on the processing

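The count of motile cilium genes that rose was between 24 (exon control shift removed) and 31 (quantile normalization, and the dimmer genes left out, which keeps 41 of the 46) over the alternatives that kept all arrays, and 0 fell in any of the alternatives run. Leaving out each array in turn gave 0 to 26 rising; an arm of 1 array is assumed to vary like the other group, and the test then has fewer degrees of freedom. Arrays share only a replicate number (the deviations of same-numbered arrays correlated at -0.0022 across genes); with that number as a block 29 genes rose, 3 of them gained and Dnai1 lost. The median difference was 0.81 with the exon control shift removed. Over all genes, the genes that fell numbered 114 without the intensity trend, 321 with the dimmer genes left out and 430 with the exon control shift removed, against 195; leaving out each array in turn gave 0 to 143 falling and 0 to 643 rising. Signs turned for Rfx2 and Ccno with the exon control shift removed (-0.0101 and -0.15), and leaving out each array in turn gave -0.10 to 0.11 for Ccno and -0.23 to 0.0152 for Mcidas. The cause of these changes was not tested. The lowest value of the 46 genes, 4.28 (Ccno), lay above the background probe median of 3.36.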

Other observations

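Probe sets annotated to several genes give no value to one gene, and 2 of them touch the cilium genes. The probe set shared by Foxj1 and Rnf157 read 5.78 on both WT arrays and 5.79 on both SCD arrays. That shared by Dnah7b and Dnah7c, paralogs of Dnah7a, read 7.38 and 7.39 in WT and 8.14 and 8.21 in SCD, with a difference of 0.79 beside the 0.79 of Dnah7a's own probe set. Tekt2 had a second probe set, with a difference of 0.14 beside 0.25.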
